A study of Mus musculus with 24 samples.

Results

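Hk1, Hk2, Pfkl, Pfkm, Aldoa, Aldoc, Eno1, Pkm, Ldha and Slc2a1 are 10 genes of glucose uptake and glycolysis. They were taken by symbol from the 21887 protein-coding genes that RefSeq lists on chromosomes 1 to 19, X and Y of the mouse assembly GRCm38.p6, and all 10 were found. The series maps the transcription factors SOX8 and SOX9 by CUT&RUN in the retina of wild-type mice, 2 days (P2) and 17 days (P17) after birth, in which an antibody brings a nuclease to a chromatin-bound protein and the released DNA is sequenced. Each of 24 libraries came from 600000 nuclei of whole retina, with an antibody to SOX8, SOX9, the histone marks H3K4me3 or H3K27ac, or with nonspecific IgG. At each age SOX8 had 4 libraries from 2 antibodies, and SOX9, H3K4me3, H3K27ac and IgG had 2 libraries each. Strain, sex, the number of animals behind a library and whether retinas were pooled are not given in the sources used here.

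Glycolysis breaks glucose down to pyruvate in the cytosol, and lactate dehydrogenase can then turn pyruvate into lactate. The neural retina is known for making lactate from glucose even when oxygen is present, and photoreceptors are its main glucose consumers. Glucose enters cells through transporters such as GLUT1, the product of Slc2a1. Hexokinases (Hk1, Hk2) phosphorylate it, phosphofructokinases (Pfkl, Pfkm) carry out the committed step, aldolases (Aldoa, Aldoc) split the sugar, enolase (Eno1) and pyruvate kinase (Pkm) complete the path to pyruvate, and Ldha encodes a subunit of lactate dehydrogenase. H3K4me3 is a histone mark of active promoters, and H3K27ac is found at enhancers as well.

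The data were 8 peak lists, 1 for each age and target, with 349901 peaks in all. Each peak has a position and a width but no height, since the score is 0 in every line. With 1 list for each age and target there is no replicate error, and every statement below describes the lists as they stand, without a test. Lists differed in size, from 2400 peaks for P17 SOX8 to 287845 for P2 H3K27ac, the median SOX9 peak was 2668 bp at P2 and 5336 bp at P17, and depth and calling threshold are unknown, so a peak gained or lost between ages cannot be told apart from a change of depth. The IgG libraries were not analysed here, and the part of nonspecific cleavage at open promoters in the SOX lists was not tested. H3K4me3 peaks lay at 7 of 11 rod genes at P2 and at 11 of 11 at P17, at 6 and 3 of 8 Müller glia genes, and at 9 and 4 of 9 progenitor genes. Cell types other than neurons, Müller glia and progenitors were also counted. H3K4me3 lay at 3 of 7 pigment epithelium, 1 of 6 microglia, 1 of 5 endothelial and 0 of 6 erythroid genes at each age. The 3 pigment epithelium genes were Best1, Pmel and Rdh5, while Rpe65, Tyr, Mlana and Lrat had no H3K4me3 peak at either age. The rod genes thus gained the mark with age while the progenitor genes lost it, and the part of this shift in cell types in the values below was not tested. Fewer cells of a type and less mark per cell cannot be told apart in whole retina.

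The promoters that separate the genes are shown first, as the 250 bases before an annotated start, from RefSeq on GRCm38.p6. All 10 genes matched the table, with 21 starts in all. Eno1 and Pkm had a peak of all 4 SOX lists over the window shown, Slc2a1 a peak of 3 lists, Pfkl a peak of the P2 lists, and Hk2 and Aldoc none. Capitals mark ACAAT and ACAAAG, short words of the kind that SOX factors bind, and ACGTG, the core of the element bound by hypoxia-inducible factor, each on either strand. The windows of Pkm and Pfkl hold none of them, and CACGTG holds 2 overlapping matches of ACGTG.
Eno1, chr4:150236458-150236707, plus strand: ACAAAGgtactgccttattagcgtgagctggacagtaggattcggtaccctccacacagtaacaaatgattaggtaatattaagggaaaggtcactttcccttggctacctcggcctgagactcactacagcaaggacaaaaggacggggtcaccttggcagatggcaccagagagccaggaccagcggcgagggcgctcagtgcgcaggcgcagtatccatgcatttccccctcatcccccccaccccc
Pkm, chr9:59656326-59656575, plus strand: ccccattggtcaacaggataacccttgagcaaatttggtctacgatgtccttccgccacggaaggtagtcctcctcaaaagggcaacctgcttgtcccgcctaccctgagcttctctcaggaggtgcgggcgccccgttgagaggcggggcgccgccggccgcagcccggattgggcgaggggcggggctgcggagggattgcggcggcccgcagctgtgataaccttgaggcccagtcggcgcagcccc
Slc2a1, chr4:119108495-119108744, plus strand: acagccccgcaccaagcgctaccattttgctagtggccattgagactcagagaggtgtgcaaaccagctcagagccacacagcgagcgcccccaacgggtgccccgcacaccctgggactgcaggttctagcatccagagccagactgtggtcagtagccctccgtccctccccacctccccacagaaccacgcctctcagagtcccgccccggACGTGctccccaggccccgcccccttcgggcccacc
Pfkl, chr10:78009808-78010057, minus strand: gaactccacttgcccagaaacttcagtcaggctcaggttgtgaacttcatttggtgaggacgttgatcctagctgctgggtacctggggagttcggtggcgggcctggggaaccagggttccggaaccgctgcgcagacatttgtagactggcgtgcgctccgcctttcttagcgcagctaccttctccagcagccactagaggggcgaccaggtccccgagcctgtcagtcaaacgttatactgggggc
Hk2, chr6:82774455-82774704, minus strand: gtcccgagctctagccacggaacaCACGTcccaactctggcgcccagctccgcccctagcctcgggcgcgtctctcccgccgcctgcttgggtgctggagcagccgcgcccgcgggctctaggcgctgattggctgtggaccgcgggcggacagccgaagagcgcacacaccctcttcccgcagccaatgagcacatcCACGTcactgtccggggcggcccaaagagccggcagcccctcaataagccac
Aldoc, chr11:78322823-78323072, plus strand: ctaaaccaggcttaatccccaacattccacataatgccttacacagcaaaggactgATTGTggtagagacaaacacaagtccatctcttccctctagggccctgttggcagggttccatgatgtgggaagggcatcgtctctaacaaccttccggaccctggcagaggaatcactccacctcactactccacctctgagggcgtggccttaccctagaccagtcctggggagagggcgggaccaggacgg

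The 10 genes have more annotated starts per gene than the rest, so counts are given per gene and per window. The share of G and C bases had a median of 60.4% over the 21 windows and 55.6% over all windows. The counts were not corrected for it. ACAAT was found before a start of 3 of the 10 genes (Aldoa, Aldoc and Pfkm), against 28.5% of 17492 protein-coding genes with an annotated start, and in 3 of 21 windows, against 25.1% of 21263. ACAAAG was found at 1 gene, Eno1, and at 2976 of the 17492, and in 1 of 21 windows, against 14.9%. Of the 4 windows with either word, 3 had a SOX peak over them (Aldoa, Pfkm and Eno1, but not Aldoc), and of the 17 windows with neither word, 11 did. ACGTG was found at 6 genes (Aldoa, Hk2, Ldha, Pfkm, Pkm and Slc2a1), and at 3491 of the 17492. Over single windows it was in 8 of 21, against 17.8%, and windows of 1 gene overlap in part. At Ldha, 1 window held 5 matches, and the 30 bases with the most of them end 25 bases before the start.
Ldha, chr7:46845750-46845779, plus strand: agcctaCACGTGggttcccgCACGTccgct
TAATCC, a word of the kind that the photoreceptor factor CRX binds, lay before a start of Aldoc, Ldha and Pfkm, 3 of 10 genes against 6.87% of all, and 3 of 21 windows against 5.82%. The Pfkm match lay before the start at 98112060, which had no peak in any of the 8 lists. These are matches of letters, with no measurement of binding by the factor named.

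Most of the genes carried SOX peaks. A gene was counted when a peak overlapped it or 5 kb on either side. P2 SOX8 peaks lay at 6 of 10 genes, against 15.1% of all protein-coding genes. P17 SOX8 peaks lay at 7 of 10, against 13.0%. P2 SOX9 peaks lay at 7 of 10, against 27.7%, and P17 SOX9 peaks at the same 7 genes, against 15.7%. Such shares were not particular to these genes. P2 SOX9 peaks lay at 9 of 9 progenitor, 5 of 8 Müller glia and 3 of 11 rod genes. P17 SOX9 peaks lay at 10 of 11 rod, 2 of 9 progenitor and 1 of 8 Müller glia genes. H3K4me3 peaks lay at 10 of 10 genes at each age (background 49.3% at P2 and 50.9% at P17), as did H3K27ac peaks (81.8% and 57.0%). In all, 164 peaks fell in the 10 windows, of which 36 were SOX peaks. The genes had a median length of 22829 bp, between 4709 bp for Aldoc and 111066 bp for Hk1, against 17169 bp for all protein-coding genes, and a longer gene has more room for a peak.

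**Figure D1:**
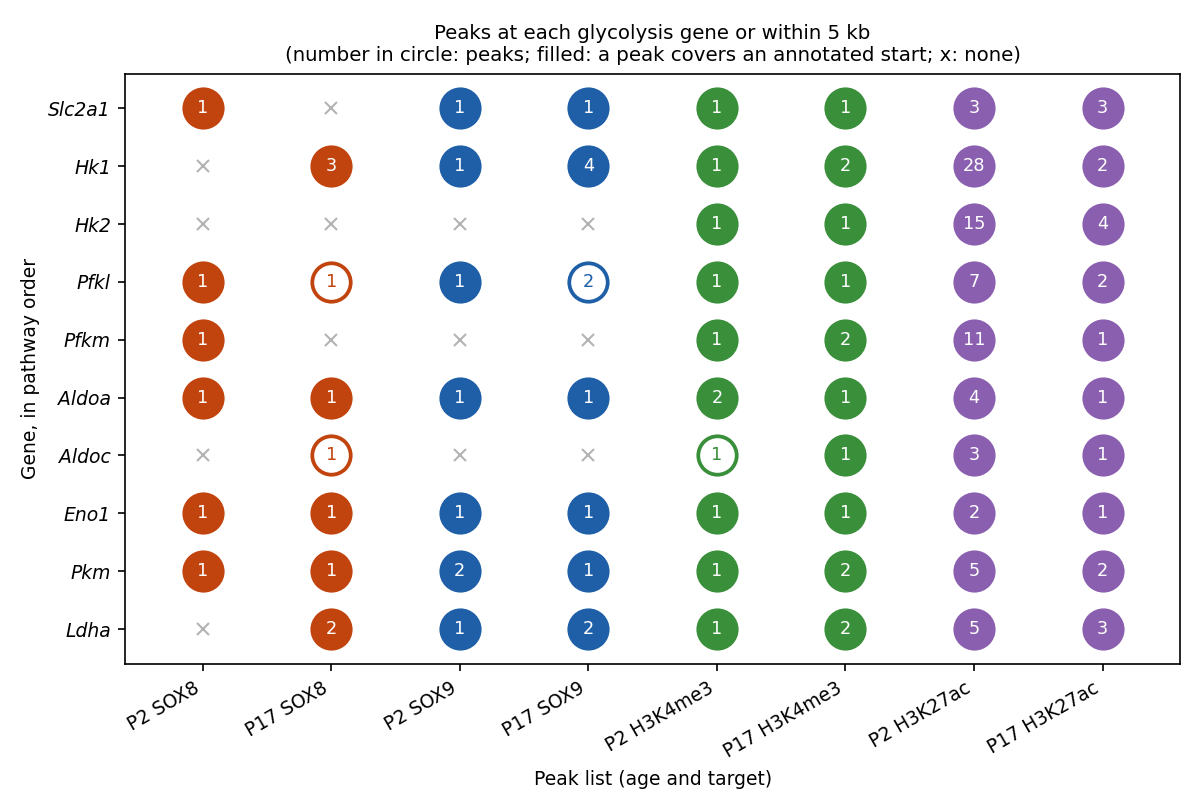
Number of peaks in each of the 8 lists (columns) at each of the 10 genes or within 5 kb (rows, in pathway order). A filled circle means that a peak covers an annotated start, an open circle that none does, and x that there is no peak. Aldoa, Eno1 and Pkm have filled circles in all 8 columns, and Hk2 has x in all 4 SOX columns.

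Counting only peaks that cover an annotated start takes gene length out of the count, but not the number of starts. The 10 genes have 21 starts, against 21263 starts for 17492 genes, and the counts below were not corrected for this. On this count P2 SOX8 peaks lay at 6 of 10 genes (background 12.2% of 17492 genes), P17 SOX8 at 5 (8.40%), P2 SOX9 at 7 (22.8%) and P17 SOX9 at 6 (10.3%). All 4 SOX lists had a peak over a start of Aldoa, Eno1 and Pkm, 3 of 10 genes against 4.59% of genes. H3K4me3 lay over a start of 9 genes at P2 (44.8%) and 10 at P17 (46.0%), and H3K27ac over a start of 10 at P2 (60.7%) and 10 at P17 (46.6%). The SOX counts can also be read against genes whose start carried H3K4me3 at the same age, since most SOX peaks of these lists overlap that mark. Among these, P2 SOX8 covered a start of 6 of 9 glycolysis genes, against 26.8% of 7836 genes, and P2 SOX9 of 7 of 9, against 48.8%. P17 SOX8 covered a start of 5 of 10, against 17.2% of 8053 genes, and P17 SOX9 of 6 of 10, against 20.2%. The distance from the background is thus smaller at marked promoters than over all genes, and smallest for P2 SOX9.

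**Figure D2:**
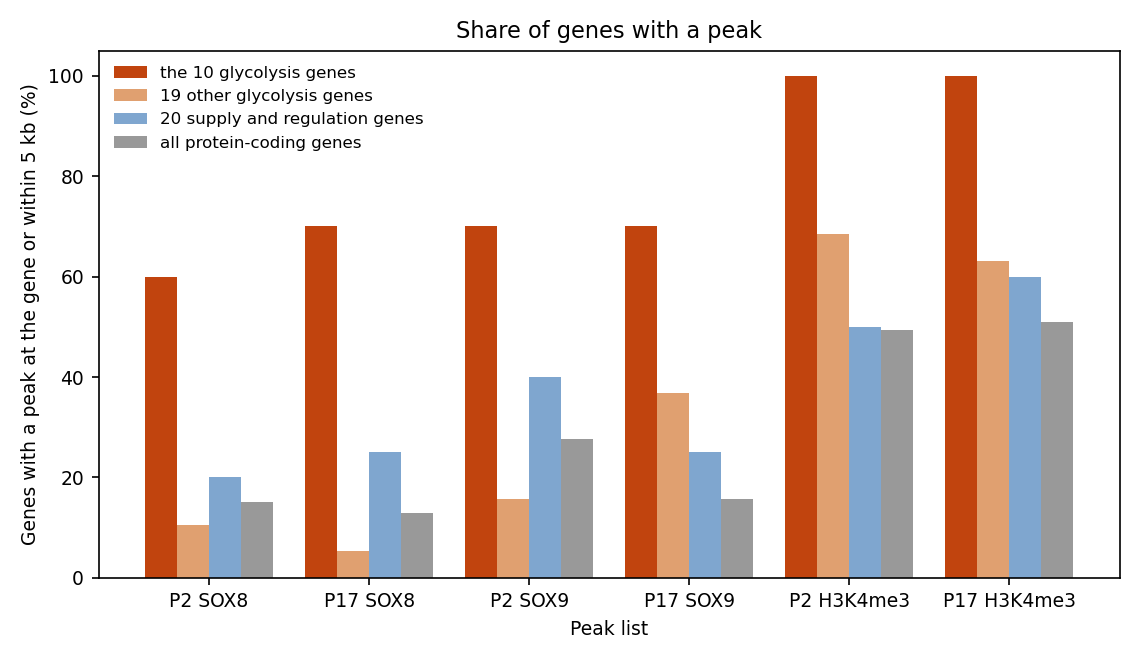
Share of genes with a peak at the gene or within 5 kb (vertical axis, percent) in 6 peak lists, for the 10 glycolysis genes, 19 other glycolysis genes, 20 genes of glucose supply and regulation, and all protein-coding genes. Bars carry no error, since each list is a single value. The first bar is at 60 to 70% in each SOX list, and the other glycolysis genes exceed all protein-coding genes in P17 SOX9 but not in the other SOX lists.

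Slc2a1, the glucose transporter gene (chr4:119108745-119137330, 1 annotated start), had SOX peaks over its start in 3 lists and none elsewhere. The P2 SOX8 peak was 1363 bp wide (chr4:119108324-119109686), the P2 SOX9 peak 2529 bp (chr4:119107455-119109983) and the P17 SOX9 peak 4061 bp (chr4:119107352-119111412). All 3 also overlapped the long noncoding RNA (lncRNA) gene Gm52706. No P17 SOX8 peak was listed. The P2 SOX8 peak was among the narrowest of its list, at percentile 4 by width. Of the 10 genes, Slc2a1 had the widest P2 H3K4me3 peak over a start, at 11077 bp, and it was 9300 bp at P17. Over its start H3K27ac formed a single domain of 34838 bp at P2 and 30969 bp at P17, which covered most of the gene.

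The hexokinase genes differed from each other. Hk2, the inducible isozyme (chr6:82725025-82774454), had no peak in any SOX list, although H3K4me3 lay over its start at both ages, with 3826 bp at P2 and 5623 bp at P17. Of 7236 protein-coding genes with H3K4me3 over a start at both ages, 37.5% had no SOX peak at the gene or within 5 kb, and Hk2 was the 1 of 9 such glycolysis genes without one. Its H3K27ac peak over the start was 804 bp at P2 and 15577 bp at P17. The P2 list had 15 separate H3K27ac peaks in the Hk2 window and the P17 list 4. Together they covered 66.2% of the window at P2 and 49.2% at P17.

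Hk1, which encodes the isozyme of brain and most other tissues (chr10:62268855-62379920), had no P2 SOX8 peak, 1 P2 SOX9 peak, 3 P17 SOX8 peaks and 4 P17 SOX9 peaks. Its first annotated start, at 62379908, had no peak in any of the 8 lists. Peaks lay over the second start, at 62340421, inside the longest gene model, and these peaks also overlapped the lncRNA gene Hk1os. Over this start the P2 SOX9 peak was 3364 bp, the P17 SOX8 peak 3376 bp and the P17 SOX9 peak 3498 bp. The further P17 peaks lay in the gene body. SOX8 peaks of 3600 bp (chr10:62299119-62302718) and 3368 bp (chr10:62316804-62320171) each overlapped a SOX9 peak, of 9956 bp and 6525 bp. A SOX9 peak of 5758 bp (chr10:62325963-62331720) had no SOX8 partner and overlapped an H3K4me3 peak of 7086 bp that was listed at P17 and not at P2, with no annotated start under it. A P17 H3K27ac domain of 71977 bp ran through all of these. The P2 list had 28 separate H3K27ac peaks in the whole window, some of them outside the span of this domain.

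The phosphofructokinase genes also differed. Pfkl, the liver-type isozyme gene (chr10:77986947-78009807), had peaks in all 4 SOX lists, but not at the same place. At P2 the SOX8 peak (1744 bp, chr10:78008487-78010230) and the SOX9 peak (2075 bp, chr10:78008172-78010246) covered the start. At P17 no SOX peak did. The P17 SOX8 peak of 864 bp (chr10:78002402-78003265) was centred 6974 bp inside the gene and lay under a P17 SOX9 peak of 6436 bp. A further P17 SOX9 peak of 6199 bp (chr10:77984085-77990283) spanned the end of Pfkl and reached into Cfap410. The H3K4me3 peak over the start measured 3712 bp at P2 and 4077 bp at P17, and SOX peaks lay over it at P2 alone.

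Pfkm, the muscle-type isozyme gene (chr15:98092589-98132447), had 1 SOX peak, of P2 SOX8 (1806 bp, chr15:98092420-98094225). That peak also covered a start of Senp1, a SUMO protease gene whose promoter faces the other way, so it cannot be given to either gene. Among the 6 P2 SOX8 peaks of the windows it was the 1 that overlapped no SOX9 peak. A presence in P2 SOX8 alone was found at 0.411% of protein-coding genes. At P17 a second H3K4me3 peak of 3175 bp (chr15:98107457-98110631) lay over internal starts at 98108471 and 98108556, where the P2 list had none. H3K27ac covered 49.1% of the Pfkm window at P2 and 5.16% at P17, the lowest value of the 10 genes at that age.

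Of the aldolase genes, Aldoa had peaks in all 8 lists and Aldoc in 5. Aldoa (chr7:126795234-126800994) had 1 peak in each SOX list, all over a start. SOX8 widths were 2165 bp at P2 and 6991 bp at P17, and SOX9 widths 2916 bp and 11209 bp. Both P17 peaks were among the widest of their lists, at percentile 98 for SOX8 and 96 for SOX9, against 47 and 61 at P2. At P17 the SOX9 peak covered 71.1% of the window of gene and flanks. H3K4me3 over the starts was 5697 bp at P2. The P17 H3K4me3 peak of 13614 bp also covered the start of the neighbour Ppp4c, a phosphatase gene that had a separate P2 peak of 3808 bp, so the P17 width joins 2 promoters.

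Aldoc, the brain-type aldolase gene (chr11:78323073-78327781), had no SOX peak over a start in any list. Its 1 SOX peak, of P17 SOX8 (4601 bp, chr11:78325129-78329729), reached from the gene body over the start of the neighbour Pigs. It was the 1 of 10 P17 SOX8 peaks of the windows with no SOX9 overlap. Neither Aldoc start carried H3K4me3 at P2, when the mark in the window was a peak of 2470 bp at the Pigs start. At P17 a peak of 8348 bp (chr11:78322040-78330387) covered both Aldoc starts and that of Pigs. H3K27ac covered the starts at both ages, with 3456 bp at P2 and a domain of 35868 bp at P17 that also reached over Unc119, a photoreceptor-enriched gene. Of the 10 genes, Aldoc was the one with no start under H3K4me3 at P2.

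Eno1, the enolase gene (chr4:150236708-150248879), had the most constant SOX peaks. The SOX8 peak measured 1526 bp at P2 and 1584 bp at P17, the SOX9 peak 2544 bp and 1838 bp, and each peak covered all 3 annotated starts. The peak centres lay 92 to 328 bp inside the nearest start. Within their lists they were at width percentile 8 for SOX8 at both ages, 45 for P2 SOX9 and 1 for P17 SOX9. Eno1 thus differed from Aldoa, which had a peak in the same 4 lists but wide ones at P17. H3K4me3 measured 5857 bp at P2 and 6839 bp at P17, and H3K27ac 18547 bp and 29802 bp.

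Pkm encodes the muscle-type pyruvate kinase, whose splice forms differ in regulation (chr9:59656576-59679372). All 4 SOX lists had a peak over its 2 starts, with 3267 bp for P2 SOX8, 2079 bp for P17 SOX8, 2456 bp for P2 SOX9 and 4212 bp for P17 SOX9. The SOX8 peak was therefore narrower at P17 and the SOX9 peak wider, while both ranked lower by width within their lists at P17 (percentile 89 to 20 and 40 to 31). The 4 SOX peaks over the starts also overlapped the lncRNA gene Gm51708. A second P2 SOX9 peak of 2303 bp lay inside the gene (chr9:59659545-59661847), and no other SOX list had a peak there. H3K4me3 over the starts was 6360 bp at P2 and 12303 bp at P17. The P17 list held another H3K4me3 peak at the far end of the window, over the start of Gramd2.

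Ldha (chr7:46842274-46855627) had 1 P2 SOX9 peak, 2 P17 SOX8 peaks, 2 P17 SOX9 peaks and no P2 SOX8 peak. Over its 2 annotated starts the P2 SOX9 peak was 2364 bp (chr7:46844946-46847309), the P17 SOX8 peak 3358 bp (chr7:46844664-46848021) and the P17 SOX9 peak 4657 bp (chr7:46844654-46849310). The site with 3 matches of ACGTG shown above lies inside all 3 of these peaks. A second pair lay upstream of the gene at P17, with 2466 bp for SOX8 (chr7:46837693-46840158) and 3856 bp for SOX9 (chr7:46837680-46841535). These overlapped no gene of the table and both overlapped a P17 H3K4me3 peak of 6342 bp that had no P2 partner. H3K4me3 over the starts was 5285 bp at P2 and 11749 bp at P17. The H3K27ac peak over the starts was 5185 bp at P2, beside a separate P2 peak of 21128 bp (chr7:46820889-46842016) that reached over Gtf2h1. At P17 a single domain of 49593 bp covered the starts and also reached over Gtf2h1.

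**Figure D3:**
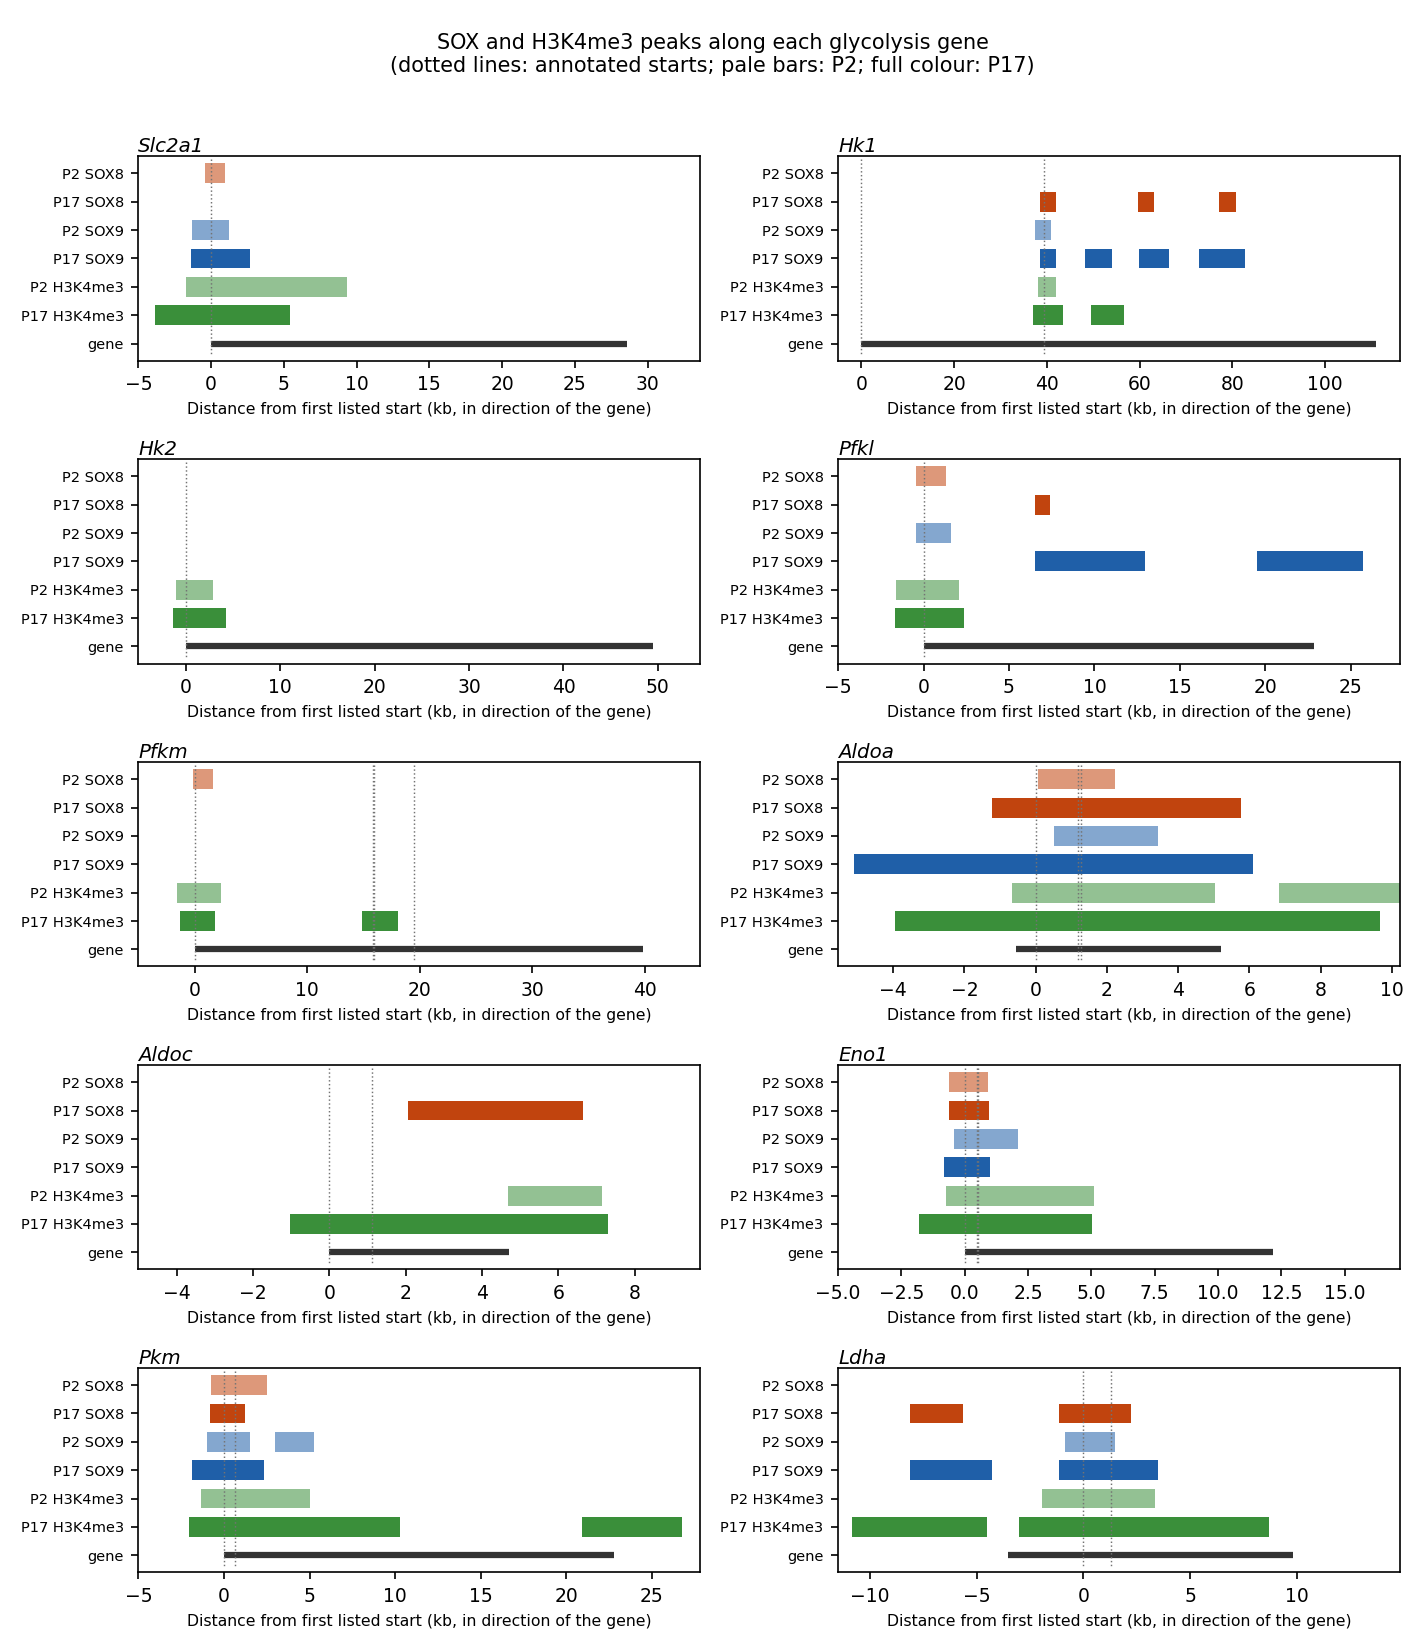
Position of SOX8, SOX9 and H3K4me3 peaks (bars, 1 row for each list) along each of the 10 genes, as distance in kb from the first annotated start in the direction of the gene. Pale bars are P2 and full colours P17, dotted lines are annotated starts, and the black line is the gene (the P2 H3K4me3 bar at the right of Aldoa runs past the axis). SOX bars sit on a start at P2, except for 1 bar inside Pkm, and at P17 bars away from the gene's own starts appear at Hk1, Pfkl, Aldoc and Ldha.

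At P2 nearly all SOX peaks were promoter peaks. All 6 P2 SOX8 peaks and 7 of 8 P2 SOX9 peaks of the windows covered a start of the gene, while at P17 the counts were 5 of 10 for SOX8 and 6 of 12 for SOX9. With starts of neighbours counted as well, the P17 SOX8 count was 6 of 10, through the Pigs start at Aldoc, and the others did not change. In the whole lists a start of any protein-coding gene lay under 69.6% of P2 SOX8 peaks, 64.4% of P2 SOX9, 53.5% of P17 SOX8 and 54.6% of P17 SOX9, so the drop with age was in the same direction there. The P17 SOX8 and SOX9 peaks over no coding start lay at Hk1, Pfkl and Ldha.

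SOX8 and SOX9 peaks coincided at most places, where an overlap of 1 bp counted. For SOX8, a SOX9 peak of the same age lay over 5 of 6 peaks at P2, below the 94.5% of the whole list. At P17 it lay over 9 of 10, against 59.0%. Of these 10 P17 peaks, Hk1 held 3 and Ldha 2, so peaks are not separate genes. Taken over SOX9 peaks, 5 of 8 overlapped SOX8 at P2, against 45.5%, and 9 of 12 at P17, against 47.5%. P17 SOX9 peaks overlapped a P2 SOX9 peak in 6 of 12 cases, against 58.6%, and P17 SOX8 peaks a P2 SOX8 peak in 3 of 10, at Aldoa, Eno1 and Pkm, against 50.4%. All SOX peaks of the windows overlapped H3K27ac of their age, as did 99.7% of P2 SOX8, 99.4% of P2 SOX9, 84.0% of P17 SOX8 and 84.3% of P17 SOX9 peaks in the whole lists. H3K4me3 of the same age was overlapped at P2 by 6 of 6 SOX8 peaks (90.1% in the whole list) and 8 of 8 SOX9 peaks (79.8%). At P17 the counts were 7 of 10 for SOX8 (69.7%) and 8 of 12 for SOX9 (66.5%), close to the whole lists. The P17 peaks outside H3K4me3 lay at Pfkl and in the body of Hk1. In summed length the SOX9 peaks covered more of the window at P17 than at P2 at 5 of 7 genes with a peak at either age, against 39.6% of genes, and the SOX8 peaks at 5 of 9, against 50% (2192 of 4383 genes).

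H3K4me3 over the starts was wider at P17 at several of the genes. Each width is that of the widest peak over any start of the gene, and the number of starts was not corrected for. Of the 9 genes with the mark over a start at both ages, 7 had a wider peak at P17 (58.6% of all 7236 such genes did). The median ratio of P17 to P2 width was 1.47, against 1.05 for all such genes. The peak was more than 1.5 times as wide at P17 at 4 of 9 genes, against 9.01% of genes. The ratios were 2.39 at Aldoa, 2.22 at Ldha, 1.93 at Pkm and 1.64 at Hk1, and without Aldoa, whose P17 peak joins that of Ppp4c, 3 genes were past this ratio. Pfkl, Eno1 and Hk2 had ratios of 1.10, 1.17 and 1.47. The ratio was under 1 at Slc2a1 (0.840) and at Pfkm (0.808, with the widest peak over any start at each age). The Pfkm ratio compares different promoters. Its P2 peak of 3930 bp covered the first start and that of Senp1, and its P17 peak of 3175 bp covered internal starts. The P17 peak over the first start and that of Senp1 was 3102 bp. The P17 widths of Aldoa, Pkm and Ldha lay at percentile 99 or above among genes with the mark at both ages.

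**Figure D4:**
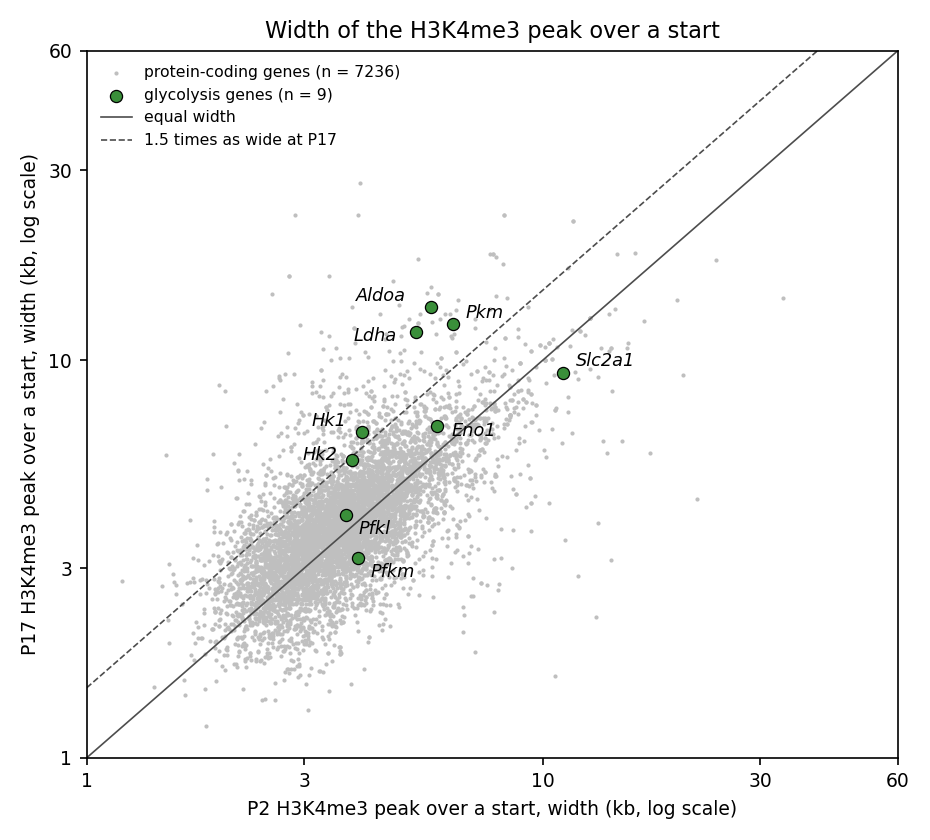
Width of the H3K4me3 peak over an annotated start at P2 (horizontal axis, kb, log scale) and at P17 (vertical axis, kb, log scale), for 9 glycolysis genes (green) and all 7236 protein-coding genes with such a peak at both ages (grey). The solid line marks equal width and the dashed line a width 1.5 times as large at P17. Aldoa, Ldha, Pkm and Hk1 lie above the dashed line, and Slc2a1 and Pfkm below the solid one. For Pfkm the P2 and P17 widths are of peaks over different starts.

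The marks were also compared by the share of each window that they covered, which counts all peaks of a gene together. H3K4me3 covered more at P17 at 9 of 10 genes, against 58.9% of genes with a peak at either age, and Slc2a1 was the exception with 28.7% at P2 and 24.1% at P17. The largest gains were at Ldha (22.6% to 67.5%), Aldoc (16.8% to 56.8%) and Pkm (19.4% to 55.4%), and those at Aldoc and Pkm include the promoters of Pigs and Gramd2. H3K27ac covered more at P17 at 7 of 10 genes, against 24.3% of genes with a peak at either age, where the P2 list is the larger by far. The median share over the 10 genes was 65.0% at P2 and 82.5% at P17, and over the 17967 genes with a peak at either age it was 27.2% and 10%. Hk2, Pfkl and Pfkm went the other way, from 66.2% to 49.2%, 79.1% to 47.5% and 49.1% to 5.16%. The H3K27ac peak over a start was more than 1.5 times as wide at P17 at 6 of 10 genes, near the 52.8% of 7740 genes with such a peak at both ages.

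**Figure D5:**
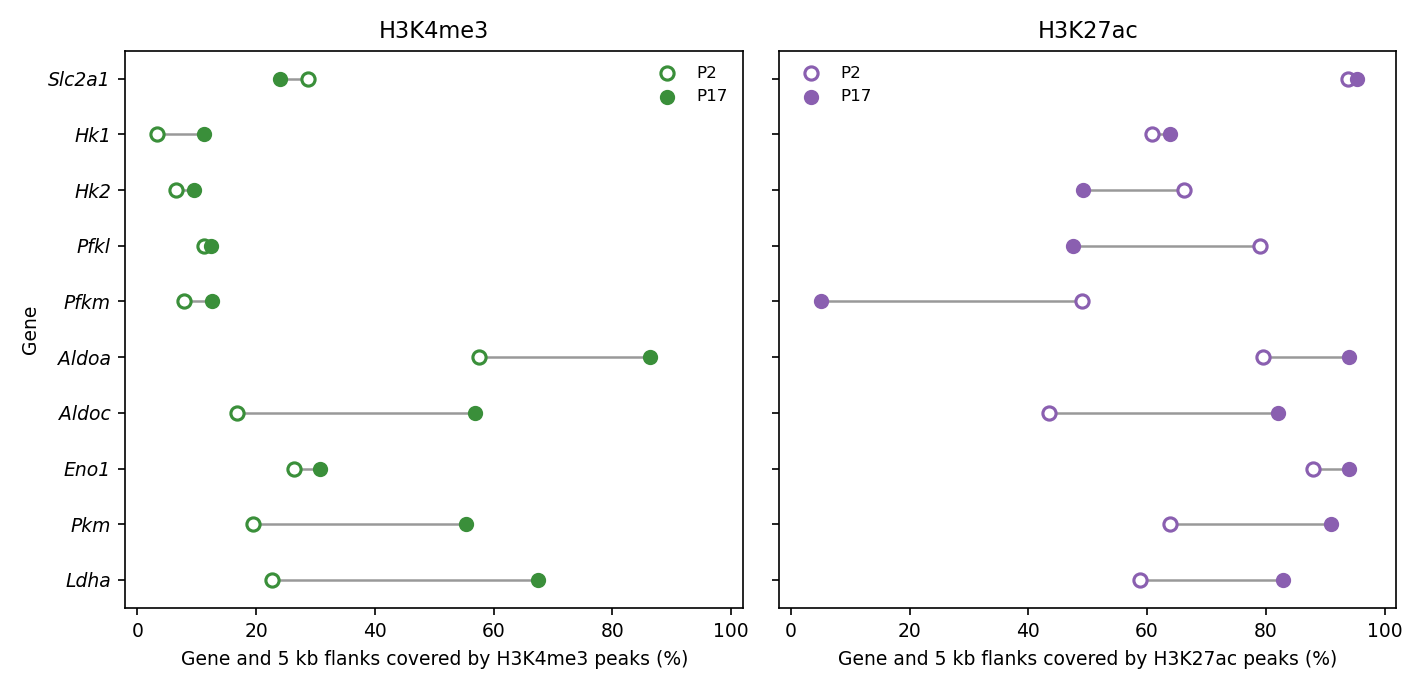
Percent of each gene with 5 kb flanks that H3K4me3 peaks (left) and H3K27ac peaks (right) covered, at P2 (open) and P17 (filled), for the 10 genes in pathway order. H3K4me3 moved right at 9 genes and left at Slc2a1, and H3K27ac moved left at Hk2, Pfkl and Pfkm.

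The rest of the pathway was described with 19 other glycolysis genes and 20 genes of supply and regulation. Of the 19, which include isozymes of liver, testis and muscle, P2 SOX8 peaks lay at 2, P17 SOX8 at 1, P2 SOX9 at 3 and P17 SOX9 at 7, and H3K4me3 at 13 at P2 and 12 at P17. Of the 20, the SOX counts were 4, 5, 8 and 5 in the same order, and H3K4me3 lay at 10 and 12. In all, 17 of 39 had a peak in any SOX list, as did 9 of the 10 genes and 33.9% of all protein-coding genes. The commonest pattern among the 10 genes, a peak in all 8 lists, was shared by Pfkl, Aldoa, Eno1 and Pkm and by 6.32% of protein-coding genes. Among the 39 it was found at Gapdh, the enzyme gene between aldolase and enolase, at Pfkfb2 and Pfkfb3, which set the level of an activator of phosphofructokinase, and at Pdk2, a kinase gene that restrains pyruvate entry into mitochondria. Gapdh, Pfkfb2 and Pfkfb3 had a peak over a start in all 4 SOX lists, like Aldoa, Eno1 and Pkm.

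Gapdh had the largest summed SOX width of the 39, with 3569 bp for P2 SOX8, 9975 bp for P17 SOX8, 6321 bp for P2 SOX9 and 9460 bp for P17 SOX9. Enolase genes differed among themselves. Eno2, the neuronal enolase gene, had SOX peaks in the P17 SOX9 list alone, with a summed 12482 bp. Eno3, the muscle form, had peaks in the P2 SOX8 and both SOX9 lists, but over a start in P17 SOX9 alone. Eno1 had all 4 lists over its starts. Whether SOX peaks of the 39 genes also lay over neighbours is not given here. Tpi1 had SOX9 peaks at both ages and no SOX8 peak. Pgam2 and Hkdc1 each had 1 peak, of P17 SOX9, and that of Hkdc1 was at no annotated start. Hif1a, which encodes the hypoxia-inducible factor subunit whose core motif was searched above, had the same SOX lists as Slc2a1, all over a start. Pgk1, Pgam1, Gpi1, Ldhb, Pfkp, Bpgm, Gapdhs, Pdk3 and Pdha1 had both marks at both ages and no SOX peak, the pattern of Hk2. Pgk1, Pdk3 and Pdha1 of these are on the X chromosome.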

How the data were processed

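Peak lists were deposited by the authors for 8 groups of libraries (4 targets at 2 ages). Per the labels, the submitters' processing notes name Bowtie2, SEACR and the build GRCm38, with no version or setting, and how libraries were combined into a list is not given in the sources used here. The deposited score is 0 in every peak. Starts were raised by 1 to count from 1. Genes and annotated starts came from RefSeq tables of GRCm38.p6, and a gene's window is the gene with 5 kb (5000 bp) on either side. Of 21887 protein-coding genes, 17492 have a start in the table. Overlap means 1 bp or more. Percentiles of width are within a list or among the genes named. No test was made, because no list holds replicate values. Depth per library is unknown, so no interval is given. The 10 genes and all lists were chosen with earlier results of these data known. Named genes are the 10, neighbours under their SOX peaks, the 10 pathway genes of largest summed SOX width, and those with the commonest pattern, while the genes with the pattern of Hk2 were chosen after their values were seen. Overlap counting was tested on simulated intervals. Python 3.11.15, pandas 2.3.3, numpy 2.4.6 and matplotlib 3.10.9 were used. Alternatives were other flanks, peak centres, peaks trimmed to 500 bp, wider peaks, equal list lengths and a stricter overlap.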

Additional observations from a re-analysis of the deposited data

How the results depend on the processing

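Of 79 alternatives over 13 counts, 73 stayed within 1.5 times the value reported and 6 were lower, while 11 of the 79 were added with the data in view. The wider 50% of each list lowered the SOX counts most: P2 SOX8 from 6 genes to 1 (Pkm, background 7.59%), P17 SOX8 from 7 to 4 (7.16%), P2 SOX9 from 7 to 2 (Hk1 and Aldoa, 13.8%) and P17 SOX9 from 7 to 3 (Hk1, Pfkl and Aldoa, 8.38%). With the widest 2400 peaks of P2 SOX9 the count was 2 (12.2%). A ratio over 2 for H3K4me3 width left 2 genes, Aldoa and Ldha, against 2.27% of genes. Flanks of 0 to 50 kb, peak centres, trimmed peaks, peaks over a start and an overlap of 50% moved no count past 1.5 times. Leaving out single libraries was not run, and no paired analysis was possible because each list is a single value for its group.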
